A study of Mus musculus with 18 samples.

Results

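The 40 genes described here encode the proteins that license replication origins and copy DNA. They were chosen by name for their roles, not by a limit on measured values, and all 40 were found among the 27179 genes of the count table. By role they were 6 origin recognition subunits (Orc1 to Orc6), 3 genes of helicase loading and its control (Cdc6, Cdt1, Gmnn), 6 subunits of the MCM2-7 helicase, 6 genes of helicase activation (Mcm10, Cdc45, Gins1 to Gins4), 5 of primase and the replicative polymerases (Pola1, Prim1, Prim2, Pole, Pold1), 6 of the sliding clamp and its loader (Pcna, Rfc1 to Rfc5), 3 of the single-strand binding complex RPA, 2 of lagging strand maturation (Fen1, Lig1) and 3 of deoxynucleotide supply (Rrm1, Rrm2, Tyms).

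As background, replication is licensed in G1, when the origin recognition complex, CDC6 and CDT1 load the MCM2-7 ring onto DNA, and geminin (Gmnn) blocks CDT1 afterwards so that no origin is used again in the same cycle. In S phase CDC45 and the GINS complex turn the loaded ring into an active helicase, primase and the polymerases start and extend new strands, PCNA and its loader RFC keep the polymerases on DNA, and ribonucleotide reductase (Rrm1, Rrm2) and thymidylate synthase (Tyms) supply the building blocks. KAT7, also called HBO1, is a histone acetyltransferase that was first found as a partner of ORC1 and that acts with CDT1 at origins. Thymic epithelial cells (TEC) include medullary cells with high MHC class II (mTEChi), many of which divide or express Aire, medullary cells with low MHC class II (mTEClo), and cortical cells (cTEC), which lie among dividing thymocytes.

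RNA was sequenced from the 3 sorted subsets of C57BL/6 mice that were wildtype (WT) or Kat7 knockout (KO). Each of the 6 groups, WT and KO mTEChi, WT and KO mTEClo, and WT and KO cTEC, had 3 libraries, 18 in all. Each library came from a pool of mice, pools 1, 2 and 3 being WT and pools 4, 5 and 6 KO, and the 3 subsets of a pool came from the same mice. No treatment is named, and the age of the mice, the number in a pool, the deleted part of Kat7 and the driver of its deletion are not given in the sources used here. Levels are given as CPM, a gene's count scaled to the size of its library, in the order of the pools. Differences are log2 values with their standard error (SE) and a p-value from edgeR's quasi-likelihood test, adjusted by the method of Benjamini and Hochberg across all 19364 genes that entered the fit. A gene is called higher or lower where that adjusted p is under 0.05. Every one of the 40 genes passed the filter on low counts.

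The labels and libraries were checked first. Kat7 lay between 38.6 and 83.4 CPM in the 9 WT libraries and between 0.765 and 4.16 CPM in the 9 KO libraries. Library totals ran from 3554089 counts (WT mTEChi, pool 1) to 20054360 counts (KO cTEC, pool 6). Replicates had Pearson correlations of log2 CPM across genes from 0.968 to 0.995, and the lowest values, 0.968 and 0.973, both involved the WT cTEC library of pool 3. That library stands apart from the other WT cTEC libraries for several replication genes below, so counts that use WT cTEC are also given without it. The 22 thymocyte markers (Rag1, Cd3e, Dntt, Cd8a and others) summed to 242, 196 and 112 CPM in WT cTEC and to 657, 445 and 417 CPM in KO cTEC. Their sums were 168 to 207 CPM in WT and 187 to 218 CPM in KO mTEChi, and 75.5 to 91.9 CPM in WT and 107 to 133 CPM in KO mTEClo. The markers at 0 counts were Zap70 and Cd5 in WT cTEC pool 3 and Rag2 in WT mTEChi pool 1 and in WT mTEClo pools 2 and 3. Markers of a subset were also present in the others. In WT, mTEC markers (Aire, Krt5 and others) summed to 3398 to 3680 CPM in cTEC, above the 2809 to 2955 CPM of mTEChi. They summed to 4695 to 4958 CPM in WT mTEClo. The cTEC markers summed to 1344 to 2414 CPM in WT cTEC, 1138 to 1212 CPM in WT mTEChi and 208 to 223 CPM in WT mTEClo. In sorted bulk samples, fewer cells of a type and less RNA per cell cannot be told apart, and a library's replication transcripts may come from TEC or from any other dividing cell in the sort.

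The sequence upstream of the genes is shown for 4 of them, since E2F factors, through motifs near the start site, are the textbook activators of this gene set. The 4 words TTTCCCGC, TTTCGCGC, TTTGCCGC and TTTGGCGC were searched on both strands in RefSeq windows of GRCm38.p6 that run from 250 bases before to 50 bases after an annotated start. Such a window was given for 32 of the 40 genes, all but Gmnn, Mcm4, Gins1, Gins2, Gins4, Prim2, Pole and Rfc2. At least 1 word was found for 13 of those 32 (40.6%), for 8 of 28 other replication genes (28.6%), for 1 of 19 G2 and mitosis genes (5.26%), for 0 of 17 thymocyte markers and for 704 of all 27025 genes with a window (2.6%). The 13 were Orc1, Orc3, Cdc6, Cdt1, Mcm3, Mcm5, Mcm6, Mcm7, Gins3, Pola1, Pold1, Rfc3 and Lig1. CCAAT, searched on both strands in the same windows, was found for 22 of the 32 (68.8%) and for 41.1% of all genes. Mcm6 and Rfc3 are shown for their words, and Orc2 and Rrm1 for their response to the knockout. Each line gives the 250 bases before the annotated start, 5′ to 3′ on the strand of the gene, with the E2F words in capitals. The windows lie at chr1:128359706-128359955 (Mcm6, minus strand), chr5:151651209-151651458 (Rfc3, minus strand), chr1:58505110-58505359 (Orc2, minus strand) and chr7:102441445-102441694 (Rrm1, plus strand).
Mcm6: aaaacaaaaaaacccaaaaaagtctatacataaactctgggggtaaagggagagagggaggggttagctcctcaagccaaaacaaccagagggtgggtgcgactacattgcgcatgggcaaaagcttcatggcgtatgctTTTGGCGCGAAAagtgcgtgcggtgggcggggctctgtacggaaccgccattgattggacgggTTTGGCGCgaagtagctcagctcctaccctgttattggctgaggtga
Rfc3: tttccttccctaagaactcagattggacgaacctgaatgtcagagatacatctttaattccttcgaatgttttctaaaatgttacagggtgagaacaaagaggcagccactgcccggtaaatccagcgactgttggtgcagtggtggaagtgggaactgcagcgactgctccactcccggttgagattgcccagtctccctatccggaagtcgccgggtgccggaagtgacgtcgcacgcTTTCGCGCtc
Orc2: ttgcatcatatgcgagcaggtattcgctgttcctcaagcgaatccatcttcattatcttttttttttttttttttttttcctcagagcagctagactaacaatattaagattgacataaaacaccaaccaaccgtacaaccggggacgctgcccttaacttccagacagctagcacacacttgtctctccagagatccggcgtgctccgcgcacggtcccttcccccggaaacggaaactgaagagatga
Rrm1: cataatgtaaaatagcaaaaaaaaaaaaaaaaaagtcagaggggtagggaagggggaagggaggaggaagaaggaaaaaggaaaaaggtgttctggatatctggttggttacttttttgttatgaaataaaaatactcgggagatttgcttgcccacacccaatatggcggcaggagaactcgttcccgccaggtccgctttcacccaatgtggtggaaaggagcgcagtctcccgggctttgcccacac

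Mcm6 carries 3 words in these bases, 2 of which overlap on opposite strands, so that a single run of capitals holds both. Rfc3 carries 1 word close to its start. None of the 4 words is in the printed bases of Orc2 or Rrm1, which says only that these letters are not in those windows. Shorter or inexact matches were not counted: the Rrm1 bases hold ttcccgc, which is TTTCCCGC without its first letter. A match is a description of sequence and not a binding site.

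The summed level of the 40 genes was highest in KO cTEC and mTEChi and lowest in WT cTEC. It was 995, 1044 and 1009 CPM in WT cTEC and 1481, 1498 and 1571 CPM in KO cTEC, so the cortical groups did not overlap. The mTEChi sums were 1262, 1433 and 1376 CPM in WT and 1560, 1505 and 1351 CPM in KO, which overlap. The mTEClo sums were 1132, 1111 and 1089 CPM in WT and 1154, 1190 and 1153 CPM in KO, which lie close together without overlapping. From WT to KO mTEClo the mean sum went from 1111 to 1165 CPM. The mean of Rrm1 alone rose by more, from 48.7 to 118 CPM. Averaged over the 40 genes, log2(CPM + 1) was lower in KO mTEClo (4.317, 4.289 and 4.201) than in WT mTEClo (4.338, 4.323 and 4.382). In cTEC that average was higher in KO (4.67, 4.62 and 4.64) than in WT (4.18, 4.22 and 4.21). By gene, the highest group mean fell in WT mTEChi for 14 genes, in KO cTEC for 10 and in KO mTEChi for 9. The lowest fell in WT cTEC for 19 and in KO mTEClo for 12. The spread over groups differed widely between genes. The highest group mean was 13.4-fold the lowest for Pole, the catalytic subunit of the leading strand polymerase, 6.93-fold for Rrm2, 6.34-fold for Mcm10, 4.87-fold for Cdc45 and 4.37-fold for Rrm1, but 1.35-fold for Orc4 and for Mcm7. Some of the wide ranges rest on few counts: Cdc6 had 0 to 99 counts per library, Mcm10 5 to 133, Orc1 12 to 50, Gins1 22 to 97 and Pole 23 to 266.

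**Figure D1:**
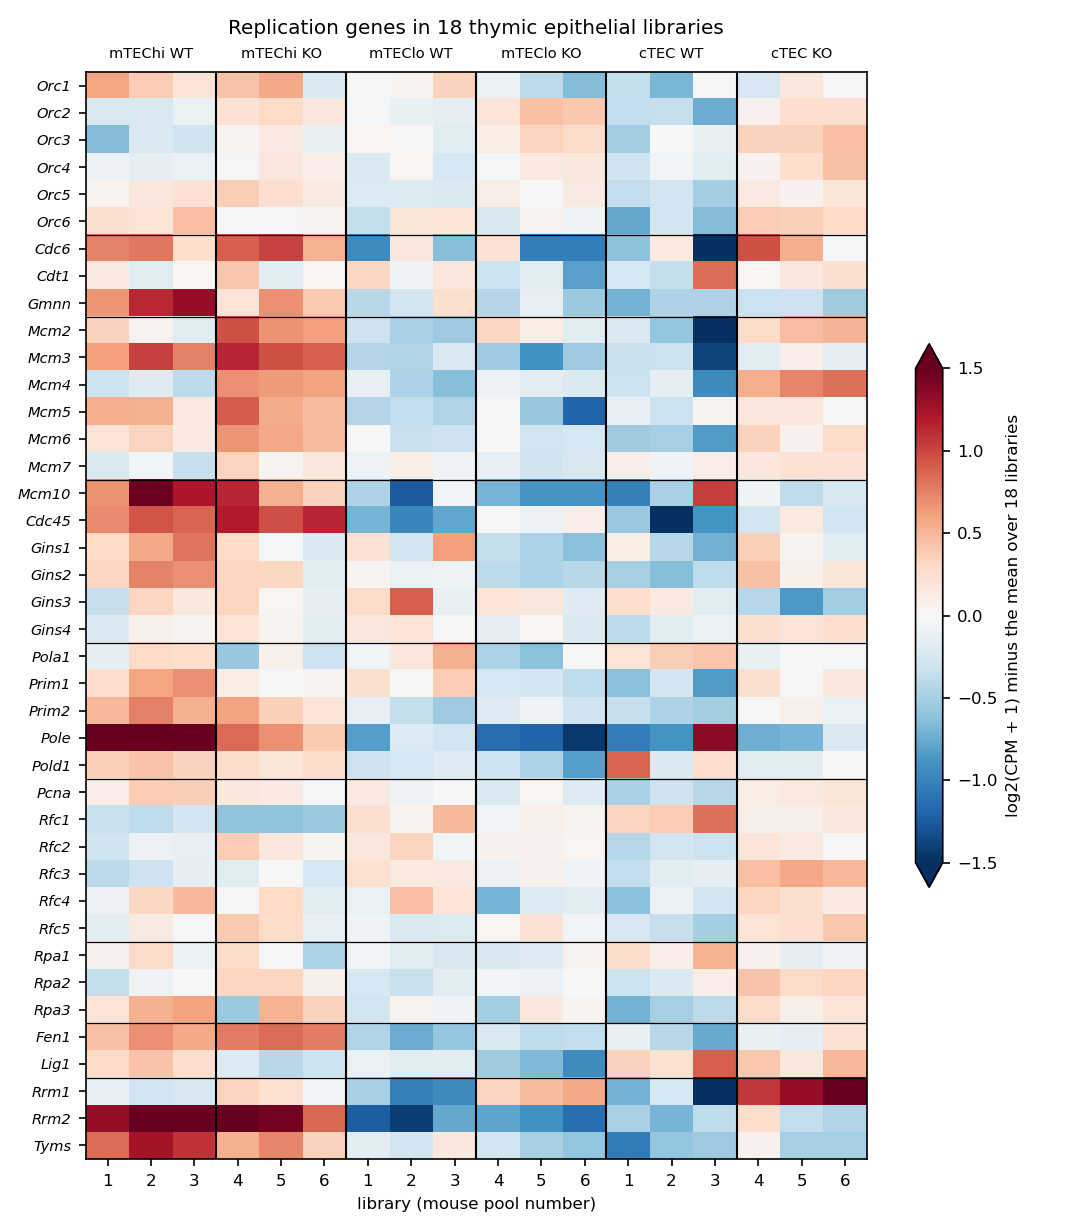
Each row is 1 of the 40 genes, ordered by role (horizontal lines part the roles), and each column is 1 of the 18 libraries, marked by mouse pool and grouped by subset and genotype. Colour gives log2(CPM + 1) minus the gene's mean over the 18 libraries, held at the ends of the scale beyond it, and shows Pole, Rrm2 and Mcm10 high in WT mTEChi, Rrm1 high in KO cTEC and WT cTEC pool 3 unlike pools 1 and 2 for several genes.

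Per kilobase of gene length, the 6 helicase subunits, which form a ring with 1 copy of each, were not at equal levels. The length was the one given for each gene with the counts. The lengths of the transcripts present were not measured, so comparisons between genes are approximate. In WT mTEChi they ran from 8.84 ± 1.65 CPM per kb for Mcm2 and 9.05 ± 1.42 for Mcm5, which did not differ beyond their spread (SD, n = 3), through 11.4 ± 0.805 for Mcm4, 14.9 ± 2.28 for Mcm3 and 15.5 ± 1.74 for Mcm7, to 28.3 ± 2.22 for Mcm6. In WT cTEC Mcm2 was again at the low end, at 4.89 ± 2.48 CPM per kb, and Mcm7 at the high end, at 18.4 ± 1.16, with Mcm6 at 15.7 ± 2.08. In KO cTEC Mcm5 had the lowest mean, at 7.23 ± 0.528 CPM per kb, and Mcm6 the highest, at 28.7 ± 2.85. The order at the low end lay within the spread. In WT cTEC Mcm3 was at 5.38 ± 2.07 and Mcm5 at 6.11 ± 0.811 CPM per kb, close to Mcm2. In KO cTEC Mcm3 was at 7.97 ± 0.846 CPM per kb, close to Mcm5. Among the origin recognition genes Orc1, the subunit whose level is known to change over the cell cycle, was the lowest in every group, at 1.08 ± 0.194 CPM per kb in WT mTEChi against 23.3 ± 2.36 for Orc6 and 22.9 ± 1.47 for Orc5.

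The first question was how the genes differ between the subsets of WT mice. In mTEChi against mTEClo, 18 of the 40 genes were higher and 4 lower, against 32.6% higher and 26.7% lower (59.3% in either direction) among all genes tested. The median log2 difference was 0.35, beside 0.08 over all genes. Rrm2, Pole, Mcm10 and Cdc45 had the largest rises. Rrm2, the small subunit of ribonucleotide reductase, was at 41.5, 55.0 and 47.2 CPM in mTEChi and at 6.23, 5.44 and 9.07 CPM in mTEClo, and rose by 2.81 ± 0.25 (adjusted p = 9.42e-09). Cdc45 was at 14.7, 17.5 and 16.5 CPM against 4.90, 3.89 and 4.61 CPM and rose by 1.86 ± 0.26 (adjusted p = 4.52e-06). Pole was at 19.9, 18.7 and 20.7 CPM against 2.35, 4.14 and 3.87 CPM and rose by 2.53 ± 0.54 (adjusted p = 0.000508). In all 3 genes the mTEChi libraries lay well above the mTEClo libraries, with no overlap.

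Helicase loading and its inhibitor differed between members. Gmnn was at 27.7, 38.6 and 44.2 CPM in WT mTEChi and at 12.6, 13.9 and 20.4 CPM in WT mTEClo, and rose by 1.26 ± 0.21 (adjusted p = 3.9e-05). Cdt1, the loader that geminin blocks, was at 9.69, 7.6 and 8.95 CPM against 11.1, 8.42 and 9.96 CPM, and its libraries overlapped (-0.19 ± 0.32). Of the helicase, Mcm3 rose by 1.24 ± 0.22, Mcm5 by 0.87 ± 0.23 and Mcm6 by 0.43 ± 0.13, while Mcm2 (0.53 ± 0.28), Mcm4 (0.09 ± 0.17) and Mcm7 (-0.20 ± 0.12) were not called. Mcm3 was at 37.4, 50.2 and 41.4 CPM in WT mTEChi and at 17.5, 17.4 and 20.4 CPM in WT mTEClo, again without overlap. Mcm10, which helps activate the loaded ring, rose by 2.16 ± 0.59 from counts of at most 19 per WT mTEClo library. Fen1, the flap nuclease of Okazaki fragments, rose by 1.21 ± 0.17, Tyms by 1.20 ± 0.20 and Prim2, the large primase subunit, by 1.02 ± 0.20.

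Of the 5 clamp loader genes 3 were lower in WT mTEChi and 0 higher. Rfc1, its large subunit, was at 32.4, 31.2 and 33.6 CPM in WT mTEChi and at 48.7, 42.5 and 58.0 CPM in WT mTEClo, and fell by 0.62 ± 0.14 (adjusted p = 0.000816). Rfc3 fell by 0.46 ± 0.12 and Rfc2 by 0.33 ± 0.11, the Rfc2 call being lost in 4 of 10 alternatives. In the origin recognition complex Orc5 rose by 0.37 ± 0.11 (adjusted p = 0.00717), a call lost only with no filter on low counts, and Orc3 fell by 0.34 ± 0.14, a call lost in 6 of 10. Rfc4 (0.08 ± 0.21) and Rfc5 (0.18 ± 0.15) were not called, and Pcna rose by 0.27 ± 0.12 with an adjusted p of 0.0489 (0.0624 with the mouse pool as a block). Beside these values, the 21 G2 and mitosis genes were all higher in WT mTEChi (median 2.65), as were 14 of the 22 thymocyte markers (2 lower) and 10 of the 11 macrophage and dendritic markers tested, and the part of other cells in the result was not tested. Of the 22 calls 15 held in every alternative run; the 4 lower calls became 2 (Rfc1 and Rfc3) with RLE scaling or DESeq2, and 2 also without WT mTEChi pool 1 or without WT mTEClo pool 2.

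**Figure D2:**
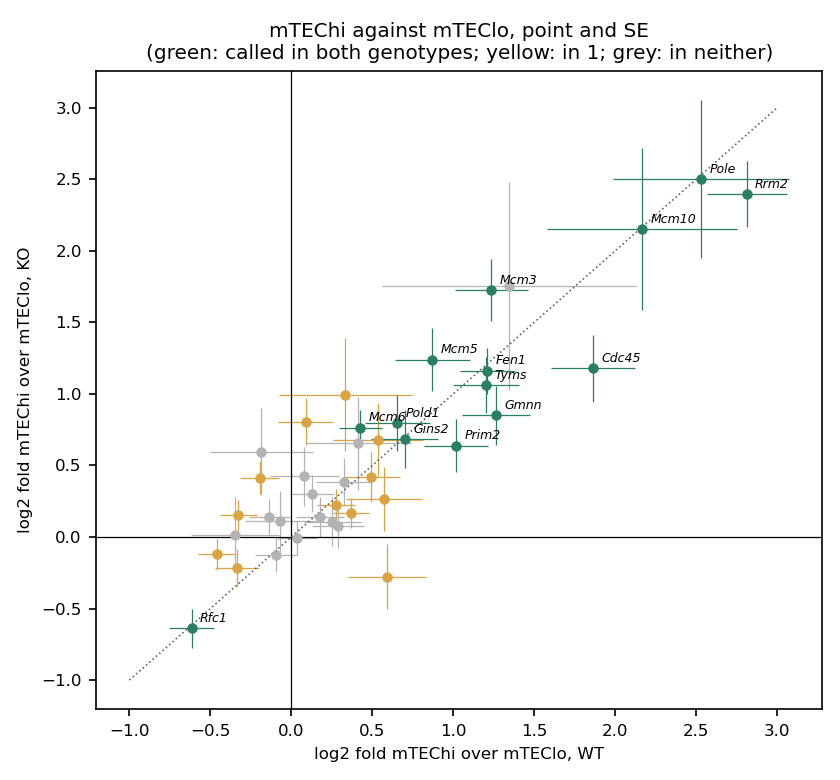
Each point is 1 of the 40 genes, with its log2 difference of mTEChi over mTEClo in WT (x axis) and in KO (y axis), bars for the SE of each and a dotted line of equality. Rrm2, Pole and Mcm10 lie at the upper right, Rfc1 is the gene called lower in both genotypes, and most genes lie near the line.

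Against WT cTEC, the genes were higher in WT mTEChi for 24 of 40 and lower for 1, against 35.9% and 28.5% (64.4% in either direction) of all genes tested, with a median of 0.59 beside 0.13 over all genes. Rrm2 rose by 2.13 ± 0.23, Cdc45 by 2.03 ± 0.25, Tyms by 1.87 ± 0.20 and Gmnn by 1.69 ± 0.21. Tyms was at 33.2, 44.7 and 39.9 CPM in WT mTEChi and at 8.30, 11.8 and 12.1 CPM in WT cTEC, with no overlap. Of the origin recognition genes 4 rose, Orc6 by 0.88 ± 0.16, Orc5 by 0.55 ± 0.11, Orc1 by 1.03 ± 0.40 and Orc2 by 0.30 ± 0.13. The calls of Orc5 and Orc6 held in every alternative run, and those of Orc1 and Orc2 were each lost in 5 of 10 (adjusted p up to 0.121 for Orc1, without WT cTEC pool 2, and 0.276 for Orc2, with no filter on low counts; 0.259 for Orc2 without WT cTEC pool 3). Rfc1 fell by 0.88 ± 0.14. Pold1, the catalytic subunit of the lagging strand polymerase, was not called (0.01 ± 0.19), and its WT cTEC libraries were spread from 31.3 to 68.1 CPM. Without WT cTEC pool 3, 21 genes were higher and 1 lower. Beside these values, all 21 G2 and mitosis genes were higher in WT mTEChi, with sums of 881 to 1060 CPM against 114 to 182 CPM in WT cTEC. Macrophage and dendritic markers summed to 1552 to 1608 CPM against 189 to 252 CPM (8 of 11 higher, 1 lower) and B cell markers to 49.8 to 54.5 CPM against 10.3 to 21.4 CPM (4 of 5 higher), and the part of other cells was not tested.

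The WT mTEClo and WT cTEC libraries were closer to each other. Between them 9 genes were higher in mTEClo and 4 lower, against 13% and 14.4% (27.4% in either direction) of all genes tested. The clearest was Prim1, the catalytic primase subunit, at 20.7, 17.7 and 23.1 CPM in WT mTEClo and at 10.9, 14.2 and 9.26 CPM in WT cTEC (higher by 0.84 ± 0.17, adjusted p = 0.00123), and the groups did not overlap. Rfc2 (0.52 ± 0.11), Pcna (0.44 ± 0.11), Orc6 (0.59 ± 0.16) and Tyms (0.67 ± 0.20) were also higher. The higher calls of Prim1, Rfc2 and Pcna held in every alternative run. The other higher calls did not, those of Orc6 and Tyms each being lost in 2 of 10. Without WT mTEClo pool 2, 6 genes were higher. Lig1, the ligase that seals Okazaki fragments, fell by 0.69 ± 0.17, Pold1 by 0.65 ± 0.19, Rrm2 by 0.68 ± 0.25 and Rpa1 by 0.47 ± 0.17 (adjusted p = 0.0571 with the mouse pool as a block). The lower call of Lig1 held in every alternative run, and the other lower calls did not: 1 of the 4 was left without WT mTEClo pool 1, WT mTEClo pool 2 or WT cTEC pool 1, and 2 without WT cTEC pool 3. Without WT cTEC pool 3, 8 genes were higher. Thymocyte markers were 0 higher and 14 lower of 22 in WT mTEClo, and their part was not tested.

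The knockout was compared with the WT in each subset, and the largest count was in cTEC. There 23 of the 40 genes were higher and 3 lower in KO, against 22.3% higher and 26.7% lower (49% in either direction) among all genes tested. The median was 0.49, beside -0.02 over all genes. The higher genes came from every role but helicase loading: 5 of 6 origin recognition genes, 4 of 6 helicase subunits, 3 of 6 activation genes, 2 of 5 of primase and polymerases, 5 of 6 of the clamp and loader, 2 of 3 RPA subunits, 1 of 2 of lagging strand maturation and 1 of 3 of deoxynucleotide supply. The lower genes were Gins3, Pold1 and Rfc1. Of the 26 calls 19 held in every alternative run, and Mcm3, Gins3, Prim2, Pold1, Rfc1, Rfc4 and Fen1 did not; lower calls numbered 1 without KO pool 5 and 5 without WT pool 2.

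Among the origin recognition genes Orc2, a core subunit (chr1:58462771-58505113), was at 27.8, 28.2 and 21.2 CPM in WT cTEC and at 37.7, 43.0 and 43.4 CPM in KO cTEC, and rose by 0.69 ± 0.12 (adjusted p = 0.000126). Orc6, the smallest subunit, was at 17.8, 25.6 and 19.5 CPM against 40.9, 40.2 and 38.6 CPM and rose by 0.92 ± 0.16 (adjusted p = 6.25e-05). Orc5 was at 32.7, 34.9 and 29.5 CPM against 46.8, 44.7 and 48.4 CPM and rose by 0.53 ± 0.10 (adjusted p = 0.000345). In these 3 genes every KO cTEC library lay above every WT cTEC library. Orc3 (0.58 ± 0.13) and Orc4 (0.43 ± 0.11) rose as well, and Orc1 was not called, at 1.53, 1.01 and 2.18 CPM in WT and 1.72, 2.65 and 2.21 CPM in KO.

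The helicase subunits did not move by equal amounts in cTEC. Mcm4 (chr16:15623897-15637400, GRCm38.p6 as for the other genes) was at 40.4, 45.9 and 25.7 CPM in WT and at 74.1, 84.6 and 90.4 CPM in KO, and rose by 1.16 ± 0.16 (adjusted p = 9.26e-06). Mcm6 was at 48.4, 49.8 and 38.7 CPM in WT and at 89.6, 73.9 and 86.4 CPM in KO, and rose by 0.87 ± 0.13 (adjusted p = 1.33e-05). Mcm2 was at 23.7, 18.4 and 7.35 CPM in WT and at 34.1, 39.0 and 40.4 CPM in KO, and rose by 1.21 ± 0.26 (adjusted p = 0.00076). WT pool 3 was the lowest library for each, and the groups did not overlap. Mcm3 rose by 0.57 ± 0.22, a call lost without WT cTEC pool 3 (adjusted p = 0.166). Mcm5 was at 21, 18.1 and 23.6 CPM in WT and 25.9, 25.7 and 22.7 CPM in KO, which overlap (0.24 ± 0.22), and Mcm7 at 45.8, 41.0 and 45.8 CPM against 47.9, 49.9 and 49.7 CPM (0.16 ± 0.11).

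Helicase loading showed no call in cTEC. Cdc6 was at 1.53 and 3.29 CPM in WT pools 1 and 2 and had 0 counts in pool 3, which allows up to 3, and was at 6.54, 4.66 and 2.84 CPM in KO (1.53 ± 0.72, adjusted p = 0.0847). Cdt1 was at 7.13, 6.63 and 16.5 CPM in WT and 8.98, 9.90 and 10.6 CPM in KO. In helicase activation Cdc45 was at 5.53, 2.39 and 4.15 CPM in WT and at 6.87, 9.65 and 6.84 CPM in KO, and rose by 0.96 ± 0.24 (adjusted p = 0.00275). The GINS subunits, which act as a tetramer, did not move together. Gins2 rose by 0.83 ± 0.20 and Gins4 by 0.46 ± 0.12, Gins1 was not called (0.50 ± 0.31), and Gins3 was at 11.4, 10.4 and 8.15 CPM in WT against 6.73, 4.73 and 6.26 CPM in KO and fell by 0.75 ± 0.26 (adjusted p = 0.0227), a call lost without WT cTEC pool 1 (adjusted p = 0.0707) or KO cTEC pool 5 (adjusted p = 0.102).

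Primase and polymerases parted in cTEC. Prim1 was at 10.9, 14.2 and 9.26 CPM in WT and at 20.8, 17.3 and 19.6 CPM in KO, and rose by 0.75 ± 0.17 (adjusted p = 0.00103), and Prim2 rose by 0.48 ± 0.18, a call lost in 8 of 9 alternatives. The polymerase subunits did not rise: Pold1 fell by 0.49 ± 0.19, Pola1 was at -0.40 ± 0.21 and Pole at -0.98 ± 0.51, neither called. Pole shows how far 1 library reached, at 1.89, 2.18 and 14.2 CPM in WT cTEC and 2.57, 2.65 and 4.05 CPM in KO cTEC. Pold1 was at 68.1, 31.3 and 44.0 CPM in WT and 32.3, 32.5 and 36.9 CPM in KO, and its call was lost without WT cTEC pool 1 (adjusted p = 0.45), KO cTEC pool 4 (0.0918) or KO cTEC pool 5 (0.101).

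Of the clamp and its loader, Rfc3 was at 34.4, 40 and 40.5 CPM in WT cTEC and at 61.3, 67.2 and 63.4 CPM in KO cTEC, and rose by 0.74 ± 0.11 (adjusted p = 1.52e-05). Pcna was at 32.0, 36.4 and 33.9 CPM against 49.2, 50.4 and 51.5 CPM and rose by 0.56 ± 0.11 (adjusted p = 0.000388). Rfc5 was at 23.2, 21.8 and 19.3 CPM against 32.3, 33.3 and 37.2 CPM and rose by 0.68 ± 0.14 (adjusted p = 0.000526). The groups did not overlap in any of the 3. Rfc2 rose by 0.46 ± 0.11 and Rfc4 by 0.58 ± 0.20, the latter a call lost without WT cTEC pool 1 (adjusted p = 0.102), KO cTEC pool 4 (0.0769) or KO cTEC pool 5 (0.055), whereas Rfc1 was at 52.0, 53.6 and 73.5 CPM in WT and 43.6, 43.6 and 46.0 CPM in KO and fell by 0.43 ± 0.13, a call lost without WT cTEC pool 3 (adjusted p = 0.102). Pcna and Tyms have named pseudogene copies. Rfc4 overlaps Eif4a2, Mcm7 overlaps Ap4m1, Cdc45 overlaps Ufd1, Fen1 overlaps Tmem258 and Lig1 overlaps Zswim9. Orc1 overlaps Prpf38a, Orc3 overlaps Akirin2 and Rars2, Orc4 overlaps Acvr2a and Mbd5, Gins2 overlaps Gse1 and Rpa1 overlaps Smyd4. Some other members overlap genes with only Gm or Mir names. Reads could be shared between such loci in libraries that do not mark strand. Rpa3 rose by 0.76 ± 0.22 and Rpa2 by 0.50 ± 0.13, while Rpa1 was not called (-0.36 ± 0.17).

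Rrm1, the large subunit of ribonucleotide reductase (chr7:102441695-102469771), had the largest difference of the 40 genes in cTEC. It was at 51.9, 71.3 and 26.1 CPM in WT and at 179, 216 and 243 CPM in KO, and rose by 2.10 ± 0.24 (adjusted p = 5.05e-07). The lowest KO library was above the highest WT library. Its partner subunit Rrm2 was at 11.2, 9.55 and 12.1 CPM in WT and 19.5, 12.2 and 11.5 CPM in KO, which overlap (0.39 ± 0.22). Tyms was at 8.30, 11.8 and 12.1 CPM in WT and 19.1, 12.6 and 12.6 CPM in KO and was not called (0.45 ± 0.20). Fen1 rose by 0.43 ± 0.16, with overlapping libraries, a call lost in 6 of 9 alternatives (adjusted p = 0.162 without WT cTEC pool 3 and 0.178 without KO cTEC pool 6), and Lig1 was not called (-0.17 ± 0.17).

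**Figure D3:**
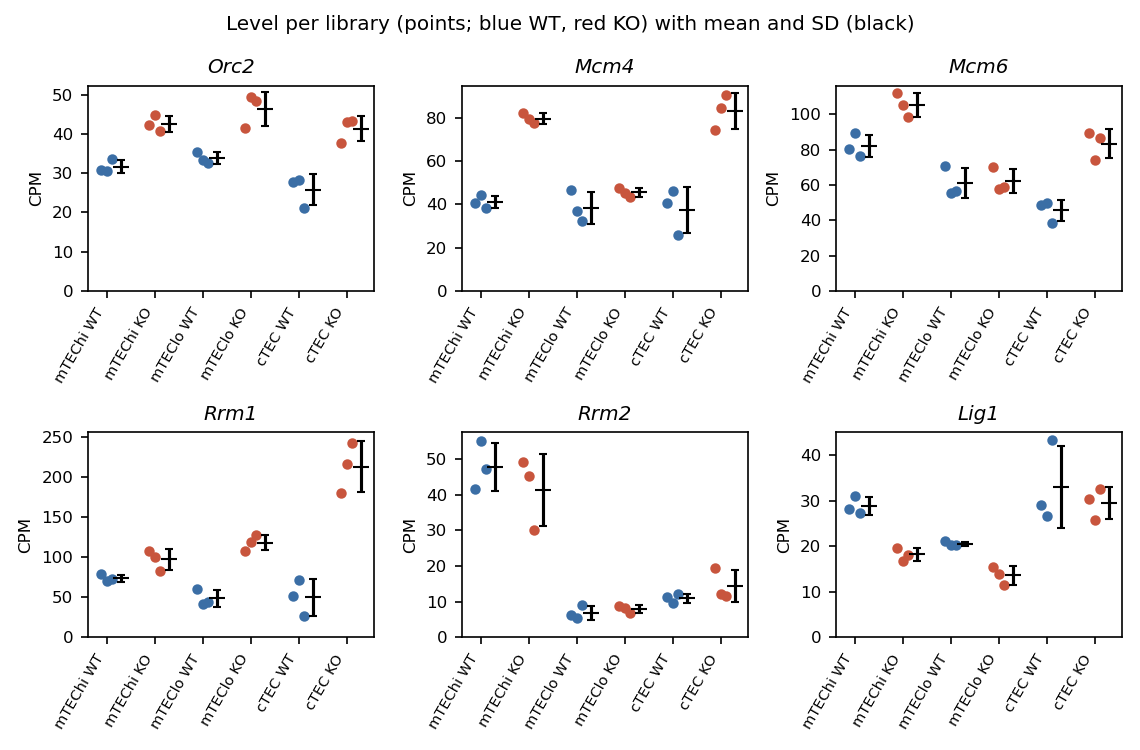
Levels of Orc2, Mcm4, Mcm6, Rrm1, Rrm2 and Lig1 in CPM on linear axes from 0, with 1 point per library (blue WT, red KO, left to right by pool) and black bars for the group mean and SD. Rrm1 reaches 243 CPM in KO cTEC, Rrm2 is high in mTEChi of both genotypes, and Lig1 is lower in KO than in WT in both mTEC subsets.

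Thymocyte markers rose in KO cTEC beside the cortical result, and those of other cells moved in both directions. Of the 22, 16 were higher and 0 lower in KO cTEC (edgeR, median 1.49); Cd8b1 rose by 2.70 ± 0.36, Cd8a by 2.19 ± 0.31, Cd3g by 2.03 ± 0.32 and Lck by 1.17 ± 0.18. Their summed level was 112 to 242 CPM in WT and 417 to 657 CPM in KO, with Zap70 and Cd5 at 0 in 1 WT library and none at 0 in KO. The G2 and mitosis genes moved too, from 114, 164 and 182 CPM in WT to 322, 247 and 246 CPM in KO, 15 of 21 higher and 0 lower. The 4 cTEC markers, all higher, summed to 1344 to 2414 CPM in WT and 3737 to 6634 CPM in KO. Epithelial markers (Epcam, Krt8 and others) summed to 4422 to 5184 CPM in WT and 6340.5 to 6450 CPM in KO. For mTEC markers (Aire, Krt5 and others) the sums were 3398 to 3680 CPM in WT and 2104 to 2586 CPM in KO. Fibroblast and mural markers summed to 1375 to 1546 CPM in WT and 2476 to 2621 CPM in KO, although 7 of the 11 were lower and 2 higher. Sums were lower in KO for macrophage and dendritic markers (189 to 252 CPM in WT, 64.9 to 76.3 CPM in KO), B cell markers (10.3 to 21.4 CPM, 2.26 to 4.40 CPM) and endothelial markers (28.6 to 47.7 CPM, 12.6 to 14.6 CPM). Within KO cTEC the library with the highest thymocyte sum, pool 4 at 657 CPM, had the lowest Mcm4 (74.1 CPM), Mcm2 (34.1 CPM) and Rrm1 (179 CPM) of the 3, but the highest Mcm6 (89.6 CPM), Orc6, Cdc6, Rrm2 and Tyms. Within WT cTEC the library with the lowest thymocyte sum, pool 3 at 112 CPM, had the lowest Mcm2, Mcm4, Mcm6 and Rrm1, but the highest Pole, Mcm10, Cdt1, Rfc1 and Lig1. With KO pool 4 left out 20 genes were higher and 2 lower, and with WT pool 3 left out 21 were higher and 2 lower. How much of the rise came from thymocytes or other cells was not tested.

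**Figure D4:**
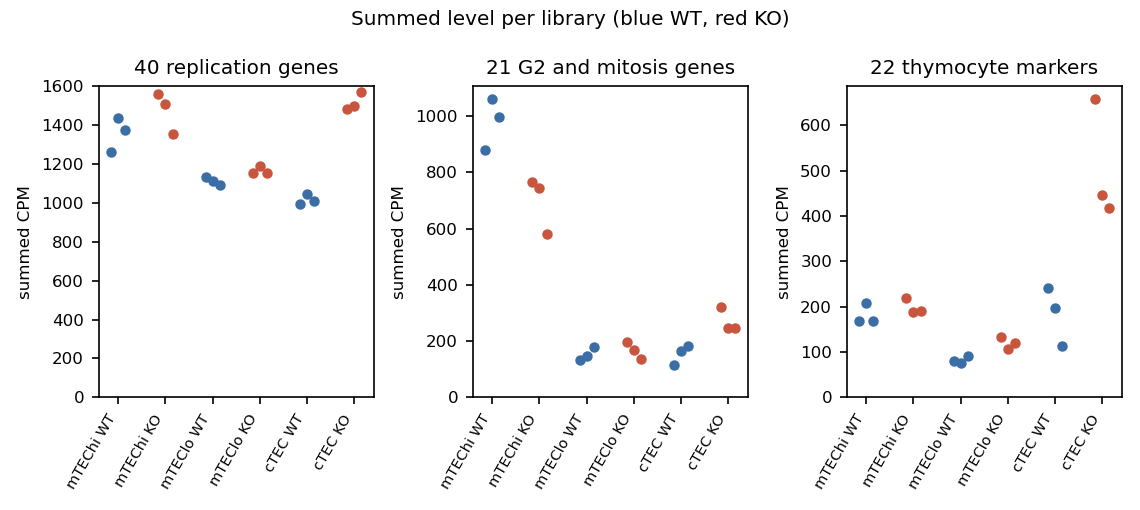
Summed CPM per library of the 40 replication genes, 21 G2 and mitosis genes and 22 thymocyte markers, with 1 point per library (blue WT, red KO) on linear axes from 0. All 3 sums are higher in KO than in WT cTEC, while in mTEChi the replication sums overlap and the G2 and mitosis sums are lower in KO.

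In mTEChi the knockout moved 12 of the 40 genes, 8 higher and 4 lower, against 17.1% higher and 19.3% lower (36.4% in either direction) among all genes tested. The median was 0.02 (-0.03 with RLE scaling), beside -0.11 over all genes. The higher genes were 4 helicase subunits, Orc2, Orc3, Rfc2 and Rpa2, and the lower genes were Gmnn, Prim1, Lig1 and Tyms. Mcm4 was at 40.4, 44.1 and 38.4 CPM in WT and at 82.1, 79.2 and 77.3 CPM in KO, and rose by 0.96 ± 0.17 (adjusted p = 0.000266). Mcm7 was at 36.3, 41.6 and 33.4 CPM against 54.1, 43.9 and 48.0 CPM and rose by 0.39 ± 0.12 (adjusted p = 0.0157), and Mcm6 was at 80.6, 89.2 and 76.6 CPM against 112, 106 and 98.5 CPM and rose by 0.36 ± 0.13 (adjusted p = 0.0341). All 3 separated WT from KO libraries, Mcm4 by the widest margin. Mcm2 rose by 0.70 ± 0.27, while Mcm3 (0.19 ± 0.21) and Mcm5 (0.26 ± 0.22) were not called.

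Lig1 was at 28.2, 31.1 and 27.3 CPM in WT mTEChi and at 19.7, 16.9 and 18.1 CPM in KO mTEChi, and fell by 0.67 ± 0.18 (adjusted p = 0.00664). Gmnn was at 27.7, 38.6 and 44.2 CPM against 19.7, 28.2 and 22.8 CPM and fell by 0.65 ± 0.20 (adjusted p = 0.0177). Lig1 separated the genotypes, while the highest KO library for Gmnn (pool 5) was just above the lowest WT library (pool 1). Tyms fell by 0.54 ± 0.20 and Prim1 by 0.51 ± 0.17. Orc2 was at 30.7, 30.6 and 33.6 CPM against 42.3, 44.8 and 40.6 CPM and rose by 0.43 ± 0.13 (adjusted p = 0.0144). The 6 activation genes had no call, from -0.64 ± 0.33 for Gins1 to 0.26 ± 0.23 for Cdc45, and Pole, at 19.9, 18.7 and 20.7 CPM in WT and 9.68, 8.58 and 6.77 CPM in KO, had -1.24 ± 0.50 with an adjusted p of 0.0581, although its libraries did not overlap. Rrm1 (0.41 ± 0.23) and Rrm2 (-0.21 ± 0.22) were not called.

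In mTEChi 3 of 12 (Orc2, Mcm4 and Lig1) held in every alternative run, against 19 of 26 in cTEC, and higher calls numbered 2 without KO pool 4, 4 without WT pool 1 or KO pool 5 and 5 without WT pool 3, with 1 lower call without WT pool 2, WT pool 3, KO pool 4 or KO pool 6. Beside them, thymocyte sums were 168, 207 and 168 CPM in WT and 218, 187 and 190 CPM in KO mTEChi. Macrophage and dendritic markers summed to 1552 to 1608 CPM in WT and 851 to 1014 CPM in KO, with 7 of the 11 tested lower and 1 higher. Sums were higher in KO for cTEC markers (1138 to 1212 CPM in WT, 1722 to 1946 CPM in KO), fibroblast and mural markers (384 to 406 CPM, 646 to 748 CPM) and endothelial markers (56.5 to 59.99 CPM, 99.4 to 105 CPM). Epithelial markers summed to 3266 to 3580 CPM in WT and 5175 to 6254 CPM in KO. For mTEC markers the sums were 2809 to 2955 CPM in WT and 3015 to 3462 CPM in KO. G2 and mitosis genes were 0 higher and 7 lower of 21, among them Mki67 (fell by 0.83 ± 0.20). The part of these cells and of the cell cycle in the result was not tested.

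In mTEClo the knockout moved 9 genes, 4 higher and 5 lower, against 18.9% higher and 15.8% lower (34.7% in either direction) among all genes tested, with a median of -0.15 beside 0.01 over all genes. Both shares of the 40 genes lay below those of all genes. Rrm1 was at 60.5, 42.0 and 43.6 CPM in WT and at 108, 119 and 127 CPM in KO, and rose by 1.27 ± 0.24 (adjusted p = 0.000291). Cdc45 was at 4.90, 3.89 and 4.61 CPM against 8.65, 8.0 and 9.28 CPM and rose by 0.95 ± 0.25 (adjusted p = 0.00639). Orc2 was at 35.4, 33.4 and 32.6 CPM against 41.5, 49.5 and 48.3 CPM and rose by 0.46 ± 0.12 (adjusted p = 0.00729). None of these 3 overlapped between genotypes. Orc5 rose by 0.30 ± 0.11, a call lost in 8 of 9 alternatives.

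The lower genes in mTEClo were Lig1, Prim1, Pola1, Rfc4 and Gins1. Lig1 was at 21.1, 20.2 and 20.2 CPM in WT and at 15.4, 14.0 and 11.4 CPM in KO, and fell by 0.59 ± 0.18 (adjusted p = 0.0121). Prim1 was at 20.7, 17.7 and 23.1 CPM against 14.3, 14.1 and 13.2 CPM and fell by 0.56 ± 0.17 (adjusted p = 0.0139). Both separated the genotypes. Pola1, the catalytic subunit that works with primase, fell by 0.61 ± 0.21, Rfc4 by 0.56 ± 0.21 and Gins1 by 0.88 ± 0.33. No helicase subunit was called, from -0.30 ± 0.22 for Mcm3 to 0.56 ± 0.27 for Mcm2, and Mcm4 was at 46.6, 36.7 and 32.1 CPM in WT and 47.7, 45.2 and 43.5 CPM in KO. Lower calls numbered 1 without WT pool 3, 2 without KO pool 4, 5 or 6 and 3 without WT pool 2. Thymocyte sums were 79.7, 75.5 and 91.9 CPM in WT and 133, 107 and 120 CPM in KO mTEClo, with 5 of 22 markers higher and 1 lower. The cTEC markers summed to 208 to 223 CPM in WT and 709 to 944 CPM in KO (4 of 4 higher), endothelial markers to 29.1 to 41.9 CPM and 72.4 to 98.8 CPM, and fibroblast and mural markers to 1177 to 1335 CPM and 764 to 881 CPM (3 of 11 higher, 4 lower). Epithelial markers summed to 4063 to 4971 CPM in WT and 5994 to 6275 CPM in KO. For mTEC markers the sums were 4695 to 4958 CPM in WT and 3322 to 3705 CPM in KO. The part of these cells was not tested.

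**Figure D5:**
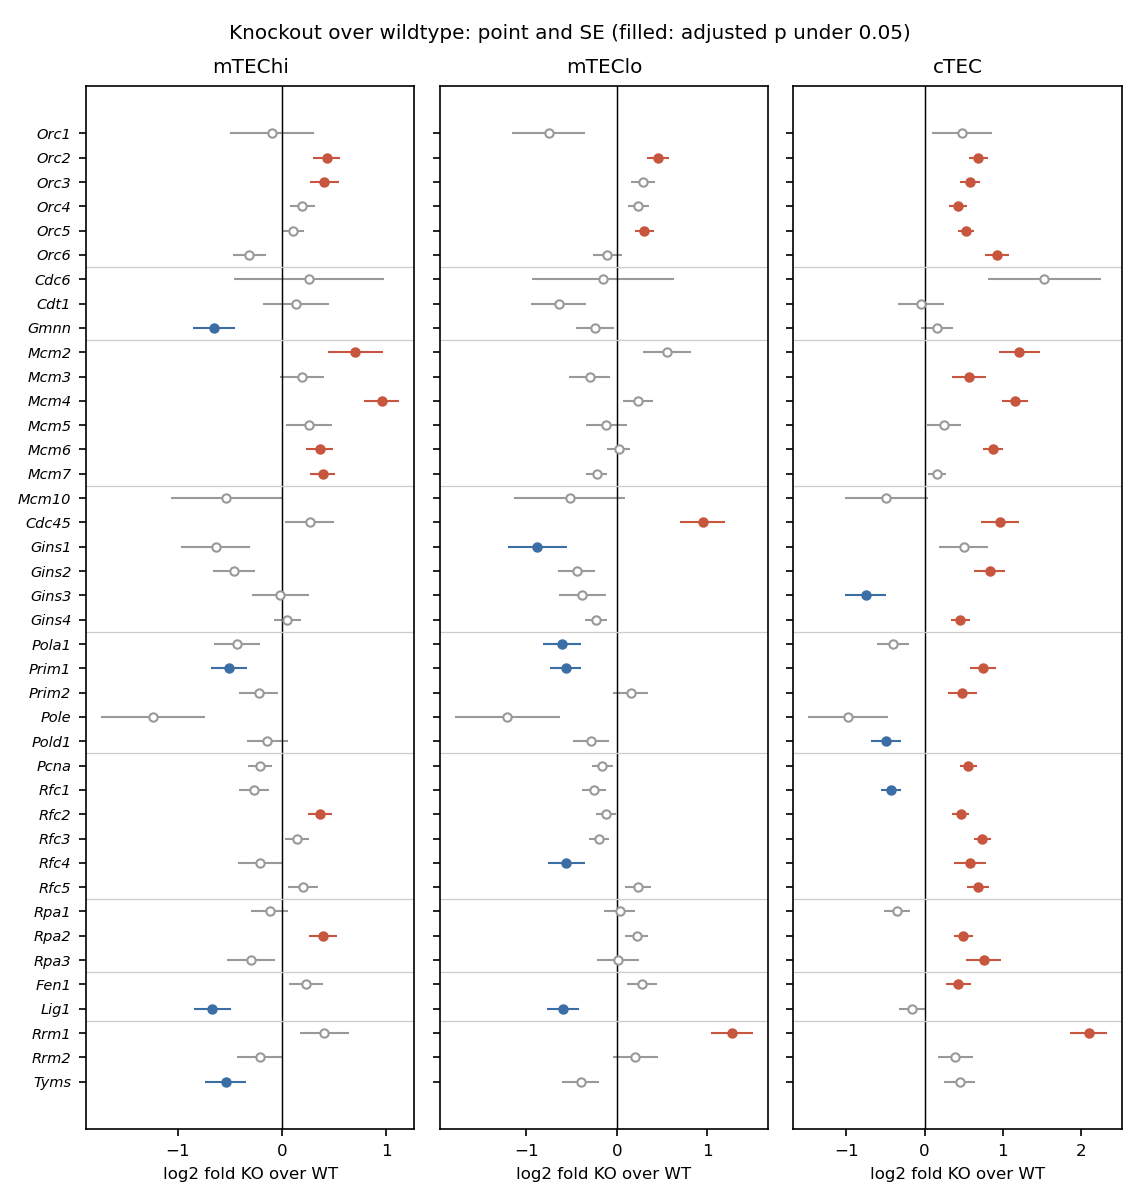
Log2 difference of KO over WT for each of the 40 genes in mTEChi, mTEClo and cTEC, with bars for the SE; filled points have an adjusted p under 0.05 (red higher, blue lower) and the x axes differ between the 3 panels. Red points crowd the cTEC panel (23 of 40), while the mTEC panels hold 8 and 4 higher and 4 and 5 lower calls.

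Across the 3 subsets Orc2 was called higher in each, the only gene of the 40 for which this held, and no gene was called lower in each. Prim1 and Lig1 were called lower in both mTEC subsets. In mTEChi the Prim1 call was lost in 6 of 9 alternatives and the Lig1 call held in each. In mTEClo the Prim1 call was lost in 2 of 9 and the Lig1 call in 1 of 9. Of the 8 genes called higher in mTEChi, 7 were also called higher in cTEC, as were all 4 of those called higher in mTEClo. Of all genes called higher in mTEChi 42.5% were also called higher in cTEC, and of those called higher in mTEClo 48.4%. These shares start from unlike levels, since 23 of the 40 genes but 22.3% of all genes tested were called higher in cTEC. The comparisons in the 3 subsets also used the same mouse pools. Among all genes tested 968 (5%) were called higher in each subset and 892 (4.61%) lower in each. Whether the knockout difference itself varied between subsets was tested directly. Between mTEChi and cTEC 13 genes were called, all with a lower value in mTEChi and 0 with a higher value, against 18.3% higher and 13.2% lower among all genes tested. Between mTEClo and cTEC 13 were again called with a lower value in mTEClo and 0 with a higher value, against 16.4% and 9.54%. Without WT cTEC pool 3, the lower calls numbered 11 for mTEChi and 15 for mTEClo against cTEC. Both comparisons share the cTEC libraries. Between mTEChi and mTEClo 2 genes were called with a higher value in mTEChi and 0 with a lower value, against 6.72% and 6.78%.

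Prim1 had knockout differences of opposite sign in mTEC and cTEC: -0.51 in mTEChi, -0.56 in mTEClo and 0.75 in cTEC. The differences from cTEC were -1.25 ± 0.24 for mTEChi (adjusted p = 0.000513) and -1.31 ± 0.24 for mTEClo (adjusted p = 0.000407). Both of these calls and the rise in cTEC held in every alternative run. The call of the fall was lost in 6 of 9 alternatives in mTEChi and in 2 of 9 in mTEClo. Orc6 differed by -1.24 ± 0.22 between mTEChi and cTEC and by -1.03 ± 0.22 between mTEClo and cTEC, and Gins2 by -1.29 ± 0.28 and -1.27 ± 0.28. Neither Orc6 nor Gins2 was called in an mTEC subset, and both rose in cTEC. Rrm1 differed by -1.69 ± 0.33 between mTEChi and cTEC, although its value was above 0 in each subset, and by -0.82 ± 0.33 between mTEClo and cTEC, which was not called (adjusted p = 0.0682). Mcm4 differed by 0.72 ± 0.24 (adjusted p = 0.0497) and Mcm7 by 0.61 ± 0.17 (adjusted p = 0.0178) between mTEChi and mTEClo. Between mTEChi and cTEC, lower calls numbered 7 without WT mTEChi pool 3 and 8 without WT mTEChi pool 2, KO mTEChi pool 6 or KO cTEC pool 4. The 2 calls between the mTEC subsets became 0 without WT mTEClo pool 2, WT mTEChi pool 3 or KO mTEChi pool 4, and 1 without WT mTEChi pool 1 or 2, WT mTEClo pool 1, KO mTEClo pool 4, 5 or 6 or KO mTEChi pool 5.

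Within the knockout, the order of the subsets changed at the cortical end. KO mTEChi was still above KO mTEClo, with 17 genes higher and 1 lower, against 23% and 22.4% (45.3% in either direction) of all genes tested (median 0.42 beside -0.05). All 6 helicase subunits were higher, from 0.41 ± 0.12 for Mcm7 to 1.73 ± 0.22 for Mcm3. Among these the Mcm2 call was lost in 4 of 10 alternatives (adjusted p up to 0.143, without KO mTEClo pool 6). Rrm2 rose by 2.40 ± 0.23, Pole by 2.50 ± 0.55 and Cdc45 by 1.18 ± 0.23. Rfc1 was the gene that fell (by 0.64 ± 0.14), as in WT. Against KO cTEC, KO mTEChi had 11 genes higher and 5 lower, against 34% and 28.4% (62.4% in either direction) of all genes tested, with a median of 0.01 beside 0.04 over all genes. With RLE scaling these medians were 0.10 and 0.14, and the first was -0.04 with no filter on low counts. Rrm2 (1.53 ± 0.22), Cdc45 (1.33 ± 0.23), Mcm3 (1.10 ± 0.21) and Gmnn (0.88 ± 0.20) were higher in KO mTEChi, and Rrm1 fell by 1.13 ± 0.23, Rfc1 by 0.72 ± 0.14, Lig1 by 0.70 ± 0.17, Rfc3 by 0.66 ± 0.11 and Orc3 by 0.36 ± 0.13. The Orc3 call was lost in 6 of 10 alternatives, among them RLE scaling (adjusted p = 0.0928) and DESeq2 (adjusted p = 0.0936). The lower calls of Rrm1, Rfc1, Lig1 and Rfc3 held in each. Higher calls numbered 6 without KO mTEChi pool 4 or KO cTEC pool 5. Beside both comparisons, macrophage and dendritic markers summed to 851 to 1014 CPM in KO mTEChi, 134 to 156 CPM in KO mTEClo and 64.9 to 76.3 CPM in KO cTEC. Thymocyte markers summed to 187 to 218, 107 to 133 and 417 to 657 CPM in the same order. G2 and mitosis genes summed to 581 to 766, 138 to 196 and 246 to 322 CPM, again in that order, and the part of these cells was not tested.

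Against KO cTEC, KO mTEClo had 1 gene higher (Gins3, by 0.75 ± 0.26) and 15 lower, against 21.2% higher and 15.8% lower (37% in either direction) among all genes tested, with a median of -0.41 beside 0 over all genes. The lower genes held 5 of 6 helicase subunits, among them Mcm4, which fell by 0.87 ± 0.16 (adjusted p = 0.000224), and Mcm5, which fell by 0.67 ± 0.22. Mcm4 was at 47.7, 45.2 and 43.5 CPM in KO mTEClo and at 74.1, 84.6 and 90.4 CPM in KO cTEC, with no overlap. Lig1 fell by 1.12 ± 0.17, Rrm2 by 0.87 ± 0.23, Rrm1 by 0.85 ± 0.23 and Gins2 by 0.75 ± 0.20. Lower calls numbered 7 without KO cTEC pool 4, and the higher call was lost without KO mTEClo pool 4 or 5 or KO cTEC pool 5 or 6. Beside this, 19 of 22 thymocyte markers were lower and 1 higher in KO mTEClo against KO cTEC, and their part was not tested.

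A second list of 35 replication genes, among them kinases, chaperones and further polymerase subunits, was counted in the same comparisons. In KO cTEC 11 were higher (31.4%) and 5 lower (14.3%), against 22.3% and 26.7% of all genes (median 0.16), with Pole3 rising by 0.75 ± 0.14 and Pole4 by 0.56 ± 0.14, the small subunits of the polymerase whose catalytic subunit Pole was not called. In KO mTEChi 2 were higher and 7 lower (5.71% and 20%, against 17.1% and 19.3%), and in KO mTEClo 2 higher and 6 lower (5.71% and 17.1%, against 18.9% and 15.8%). Mcmbp, which binds MCM subunits and helps assemble and protect them, rose in each subset, by 0.46 ± 0.11 in mTEChi, 0.41 ± 0.11 in mTEClo and 0.52 ± 0.11 in cTEC. Donson, which helps place CDC45 and GINS on the ring, fell in each, by 0.55 ± 0.14, 0.69 ± 0.14 and 0.66 ± 0.14. Dut, the enzyme that removes dUTP, fell by 0.98 ± 0.16 in mTEChi. In WT mTEChi against mTEClo 17 were higher and 2 lower, against 32.6% and 26.7% of all genes, led by Cdc7, the kinase that triggers origin firing, which rose by 2.07 ± 0.25.

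Genes with and without an E2F word were found among the called and the uncalled. In KO cTEC 4 of the 13 genes with a word were higher and 2 lower (median 0.24), and 14 of the 19 with a window but no word were higher and 1 lower (median 0.56), against 22.3% higher and 26.7% lower among all genes tested. In WT mTEChi against mTEClo 5 of the 13 were higher and 2 lower, and 9 of the 19 were higher and 1 lower, against 32.6% and 26.7% of all genes. Genes without a word can hold a shorter match, as Rrm1 does. These counts are a description, and no difference between the sets was tested.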

How the data were processed

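The deposited table gives read counts per gene, whole numbers made by the authors with featureCounts on mm10, per the submitters' processing notes. The aligner and the treatment of reads that map to several places are not given in the sources used here. Per the labels' protocols, RNA of sorted cells was amplified with SMART-Seq v4 and made into Nextera XT libraries, which do not mark strand. The 18 single-library files were checked and hold the same counts as the table.

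Counts were scaled by TMM, genes were kept by edgeR's filterByExpr with a minimum count of 10, and quasi-likelihood models were fitted with edgeR 4.0.16 (R 4.3.3) on 6 group means over all 18 libraries, leaving 12 residual degrees of freedom. The 1312 genes without a symbol stayed in the fit. The comparisons of groups and the differences of the knockout effect, 12 contrasts in all, were each adjusted by Benjamini-Hochberg over all genes tested. CPM were computed from the counts on TMM-scaled libraries, with totals of 3554089 to 20054360 counts. Values per library are given for up to 3 called genes per role and comparison with the smallest adjusted p, and roles without a call by their range; values of further genes were chosen after they were seen. From other lists up to 4 genes are named by the same order.

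Alternatives were RLE scaling, DESeq2 1.42.0, no filter on low counts, leaving out each library, and a replicate block by mouse pool for comparisons between subsets. The pool number pairs subsets because the labels say that they came from the same mice; same-pool libraries had correlations of their deviations from the group means between -0.0298 and 0.381. The scripts were tested on simulated counts with known changes. The genes and lists were chosen with earlier results of these data known. Coordinates and upstream sequences are from RefSeq GRCm38.p6, the assembly also named mm10, matched by Entrez gene identifier for 40 of 40 genes (sequence windows for 32). Pooled mice were the replicates, and the spread was estimated over all 18 libraries. For KO against WT the p-values rest on the spread between pools within groups. For comparisons between subsets and of the knockout effect, the main fit treated libraries of the same pool as independent. Only the replicate block by mouse pool takes that pairing into account.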

Additional observations from a re-analysis of the deposited data

Results flagged for a closer look

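The knockout effect (KO over WT, log2) was tested for a difference between subsets, and the genes below passed that test at an adjusted p under 0.05 (edgeR quasi-likelihood, 3 libraries a group). Between mTEChi and cTEC the effect was lower in mTEChi for 2 origin recognition genes, Orc6 (-1.24) and Orc5 (-0.42), for the loading inhibitor Gmnn (-0.81), for the helicase subunit Mcm6 (-0.51) and for Gins2 (-1.29). It was also lower for both primase subunits, Prim1 (-1.25) and Prim2 (-0.71), for Pcna (-0.77), for the clamp loader subunits Rfc4 (-0.79) and Rfc3 (-0.60) and for Rpa3 (-1.05). In nucleotide supply it was lower for Rrm1 (-1.69) and Tyms (-0.99). Of these 13, 7 kept the call in every alternative run.

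Between mTEClo and cTEC the effect was lower in mTEClo for Orc6 (-1.03), for the helicase subunits Mcm4 (-0.92), Mcm3 (-0.87) and Mcm6 (-0.85), and for the GINS genes Gins1 (-1.37), Gins2 (-1.27) and Gins4 (-0.68). Prim1 (-1.31), Pcna (-0.72), Tyms (-0.85) and the clamp loader genes Rfc4 (-1.13), Rfc3 (-0.94) and Rfc2 (-0.57) were lower as well. Of these 13, 9 kept the call in every alternative run.

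Between mTEChi and mTEClo the effect was higher in mTEChi for Mcm4 (0.72) and Mcm7 (0.61), and 0 of these 2 kept the call in every alternative run. The cTEC libraries are shared by the first 2 sets of tests.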

How the results depend on the processing

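No direction reversed among the member calls in any alternative; 1630 values of called genes under an alternative stayed past the threshold and 341 fell short of it. Under the other scalings, filter and block, 86 of 90 counts stayed within 1.5 times. The others were the lower calls of WT mTEChi against mTEClo (2 with RLE scaling and 2 with DESeq2), those of WT mTEChi against cTEC (2 with no filter on low counts) and the lower knockout effects of mTEChi against cTEC (8 with no filter on low counts). With the replicate block by mouse pool, WT mTEChi against mTEClo gave 18 higher and 4 lower, WT mTEChi against cTEC 25 and 1, and the knockout effects of mTEClo against cTEC 15 lower. The block ended the calls of Pcna in WT (adjusted p = 0.0624) and Orc1 in KO (adjusted p = 0.0672) in mTEChi against mTEClo, Rpa1 in WT mTEClo against cTEC (adjusted p = 0.0571) and Prim2 in KO mTEChi against cTEC (adjusted p = 0.0505), and no other. Leaving out 1 library gave, for KO against WT in mTEChi, 2 to 7 higher and 1 to 4 lower; in mTEClo, 1 to 4 lower; in cTEC, 20 to 23 higher and 1 to 5 lower. For WT mTEChi against mTEClo it gave 2 to 4 lower, for WT mTEChi against cTEC 1 to 2 lower and for WT mTEClo against cTEC 1 to 4 lower. In KO it gave 6 to 11 higher for mTEChi against cTEC, and 0 to 1 higher and 7 to 12 lower for mTEClo against cTEC. Of the knockout effects, mTEChi against mTEClo gave 0 to 3 higher, and mTEChi against cTEC 0 to 1 higher and 7 to 12 lower. The causes were not tested. There were 3 pools a group, and counts under 20 in several libraries limit the precision for Cdc6, Mcm10 and Orc1.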

Other observations

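Regulators of the G1 to S step were counted beside the 40 genes. For each list below, the shares of all genes tested called higher and lower in KO were 17.1% and 19.3% in mTEChi, 18.9% and 15.8% in mTEClo, and 22.3% and 26.7% in cTEC. In KO mTEChi, Rbl2 and Rb1, which hold E2F factors back, rose by 0.80 ± 0.11 and 0.66 ± 0.11, Cdk2 rose by 0.67 ± 0.12 and Tfdp1, the partner of E2F factors, fell by 0.60 ± 0.12. In KO mTEClo, Ccnd1 fell by 1.37 ± 0.13 and Ccnd2 by 0.94 ± 0.14, Rbl2 rose by 0.93 ± 0.11, and E2f8, a repressor of E2F targets, rose by 2.67 ± 0.31. In KO cTEC, Cdk4 rose by 0.93 ± 0.12, and Ccnd3 fell by 0.78 ± 0.14 and Cdc25a by 0.86 ± 0.16. Of this list of 26 genes 5 were higher and 3 lower in mTEChi, 4 and 4 in mTEClo, and 6 and 3 in cTEC, or 19.2% and 11.5%, 15.4% and 15.4%, and 23.1% and 11.5%.

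The CDK inhibitor Cdkn1c (p57) fell in each subset of the knockout, with log2 differences of -1.32 ± 0.19 in mTEChi, -1.23 ± 0.19 in mTEClo and -2.58 ± 0.21 in cTEC. Of the 7 CDK inhibitors 0 were higher and 4 lower in mTEChi, 3 and 2 in mTEClo, and 1 and 4 in cTEC. Cdkn1a (p21) fell by 0.65 ± 0.12 in mTEChi. Among 10 replication checkpoint genes Chek2 rose in each subset, by 1.00 ± 0.19, 0.64 ± 0.18 and 1.44 ± 0.17, and Chek1 rose by 1.53 ± 0.36 in cTEC. That list had 1 higher and 1 lower in mTEChi, 2 and 1 in mTEClo, and 5 and 2 in cTEC. Among 16 targets of p53, Perp rose by 1.36 ± 0.11, 0.94 ± 0.11 and 1.17 ± 0.11. Fas fell by 0.72 ± 0.10 in mTEChi. The p53 targets had 4 higher and 4 lower in mTEChi, 8 and 1 in mTEClo, and 4 and 2 in cTEC.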
